A study of Mus musculus with 4 samples.

Results

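Memory-type CD8 T cells of the mouse peritoneal cavity were taken as the droplet barcodes that carried CD8 and CD3 transcripts together with Ccl5 or Nkg7. A barcode was a member when it had 300 or more genes, at most 10% mitochondrial UMIs and no B-cell receptor contig. It also needed 1 or more UMIs of Cd8a and Cd8b1 together, 1 or more of the CD3 chains Cd3e, Cd3d and Cd3g together, and 2 or more of Ccl5 and Nkg7 together. It had to lack Trdc, the constant gene of the delta chain, and to carry at most 2 UMIs of the B-cell genes Cd79a and Ms4a1 and at most 1 of the macrophage genes Adgre1, Prg4 and Alox15. This gave 174 members among 6684 kept barcodes of the HFD library and 142 among 13069 of the CD library, 316 of 19753 in all. Barcodes with 300 or more genes and at most 10% mitochondrial UMIs are called kept barcodes here.

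Memory CD8 T cells have met antigen, or an equivalent cytokine signal, before, and they persist with a low threshold for renewed killing and chemokine release. In mice they carry CD44, the interleukin-15 receptor chain CD122 (Il2rb), the chemokine receptor CXCR3 and often Ly6C, and they hold ready-made transcripts for the chemokine CCL5 and the granule membrane protein NKG7. Naive CD8 T cells instead carry CCR7, which takes them into lymph nodes, and the transcription factors Lef1 and Tcf7. The peritoneal cavity is a serous space in which B cells and resident macrophages outnumber T cells.

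The study compared peritoneal immune cells of wild-type (WT) mice on a high-fat diet (HFD) with those of mice on chow (CD). Diets began when mice were 4 weeks old and ran for 3 months. Lavage cells were sorted for CD45, the pan-leukocyte surface protein, and 1 droplet expression library and 1 B-cell receptor library were made per diet. The series design names chow for the CD group, whereas the sample treatment notes place both groups on high-fat diet. Neither how many animals stood behind a library nor any pooling of animals is stated in the labels. With 1 library per diet there is no replicate check and no test. A difference between the diets therefore cannot be told apart from a difference between the 2 libraries. Intervals below are 95% intervals that cover counting error only.

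The deposited tables held unique molecular identifier (UMI) counts, 57630074 in HFD and 73549582 in CD. The median kept barcode had 6452 UMIs in HFD and 4464 in CD, so the HFD library was the deeper one per barcode. The members' summed counts were 1164223 UMIs in HFD and 641505 in CD, with a median per member of 6157.5 (range 1126 to 25400) in HFD and 4109 (740 to 10793) in CD. The expression libraries shared 30 barcode sequences, of which 2 belonged to HFD members and 0 to CD members. Levels below are CPM (UMIs of a gene per 1000000 UMIs) of the counts summed over a class of barcodes, with no correction for transcript length.

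The label was checked against markers, and the members were a mixture. Ccl5 was present in 74.7% of HFD members and 80.3% of CD members, but its UMIs per member spread over a wide range. B barcodes, which should lack it, carried a Ccl5 UMI in 11% in HFD and 7.25% in CD, and after thinning to 2000 UMIs per barcode in 3.96% and 3.61%, against 67.3% and 72.7% of members. In HFD 44 members had 0 Ccl5 UMIs, 21 had 1 to 9 and 109 had 10 or more, with 17 of these at 100 or more. In CD 28 members had 0, 20 had 1 to 9 and 94 had 10 or more, with 11 at 100 or more. Members with 0 Ccl5 UMIs had met the rule through Nkg7, of which they carried a median of 5 UMIs in HFD and 4 in CD. Members with 10 or more Ccl5 UMIs are called Ccl5-high here and the others Ccl5-low, a division made after the values were seen. It used UMIs not scaled to depth, so it depends on the depth of a member. A CD member with 8 Ccl5 UMIs among 740 was Ccl5-low, and an HFD member with 37 among 25400 was Ccl5-high. Between 5 and 19 Ccl5 UMIs, near that division, lay 17 HFD and 17 CD members. Ccl5-low members numbered 65 in HFD and 48 in CD.

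A list of 8 naive T markers (among them Lef1, Ccr7, Satb1, Dapl1 and Igfbp4) summed to 1275 CPM in the Ccl5-high and 2391 CPM in the Ccl5-low members of HFD. In CD it summed to 954 CPM in the Ccl5-high and 2544 CPM in the Ccl5-low members. The CD8 barcodes with no Ccl5 or Nkg7 UMI, 23 in HFD and 14 in CD, stood at 2052 and 1923 CPM. A Cd4 UMI was seen in 8 of these 23 and 4 of these 14. Their 6 CD4 T markers summed to 305 CPM in HFD and 410 CPM in CD, against 36.1 and 65.5 CPM in members. The part of CD4 T or mixed barcodes among them was not tested. The Ccl5-low members thus had as much of the naive list as those barcodes, in both libraries. A list of 11 memory CD8 markers ran the other way, at 2914 CPM in Ccl5-high and 600 CPM in Ccl5-low members of HFD and at 2849 and 791 CPM in CD. The memory label therefore described the Ccl5-high members, while the Ccl5-low members carried Nkg7 with a naive-type profile. The rule used Ccl5 and Nkg7, so these values describe the members and were not tested.

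**Figure D1:**
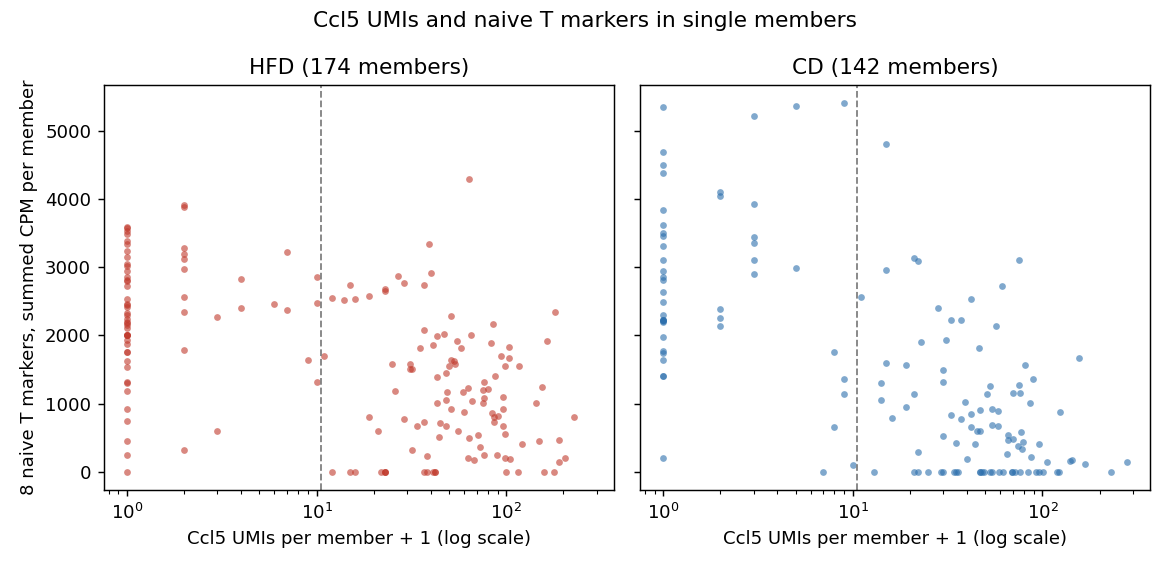
Each point is 1 member, with its Ccl5 UMIs plus 1 on a log axis and the summed CPM of the 8 naive T markers on the vertical axis, HFD members left and CD members right. The dashed line marks the division at 10 Ccl5 UMIs, with 109 HFD and 94 CD members right of it. Members on both sides of it reach into the upper range of the naive markers.

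At the threshold itself, the members just inside, with 2 UMIs of Ccl5 and Nkg7 together, numbered 11 in HFD and 10 in CD, and the barcodes just outside, with 1 UMI, numbered 17 in HFD and 9 in CD. Their naive marker sum was 1545 CPM inside and 1862 CPM outside in HFD, and 3524 CPM inside and 2213 CPM outside in CD. Their memory marker sum was 958 CPM inside and 651 CPM outside in HFD, and 867 CPM inside and 293 CPM outside in CD. The other members, 163 in HFD and 132 in CD, had 3 or more UMIs.

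The receptor genes were those of CD8 T cells, which the rule itself asked for in CD8 and CD3. Cd8b1, the beta chain found on conventional CD8 T cells, was at 1014 CPM in HFD and 1052 CPM in CD, and 12 HFD and 9 CD members had none of it and met the rule through Cd8a. A Cd4 UMI was seen in 4 HFD and 1 CD members. Alpha-beta receptor segments were those of T cells and did not separate CD8 from CD4 T cells. A Trbv UMI was found in 98.9% of HFD and 90.8% of CD members, against 0 of 33 and 0 of 26 NK barcodes. CD4 T barcodes had a Trbv UMI in 97.8% in HFD and 94.1% in CD, and gamma-delta T barcodes in 45.1% and 23.3%. Among B barcodes (3 or more UMIs of Cd79a and Ms4a1), 3.08% in HFD and 1.80% in CD had a Trbv UMI. Gamma-delta genes summed to 44.7 CPM in HFD and 142 CPM in CD members, with Trdv4, Sox13 and Il17a at 0 in both and Trdc at 0 by the rule.

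Transcripts of other cells were also present. The 14 B-cell markers summed to 1751 CPM in HFD members and 3740 CPM in CD members, with all 14 seen in HFD and Jchain at 0 in CD. The 16 macrophage markers summed to 1882 CPM in HFD and 2588 CPM in CD, with Gata6 at 0 in CD, but the median member had 1225 CPM in HFD and 1129 CPM in CD. Scaled by its markers, the B-cell profile amounted to 4.72% of the members' UMIs in HFD and 10.7% in CD. Members with neither a B nor a macrophage UMI of the rule's genes numbered 60 in HFD and 61 in CD. These are called single-lineage members here, and their value is given beside some results below.

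Set against the CD8 barcodes without a Ccl5 or Nkg7 UMI, the members as a whole had more of several effector genes. Over 1536 genes, 32 (2.08%) were higher and 5 (0.326%) lower in the members in both libraries with intervals clear of 0, and 22 (1.43%) and 1 (0.0651%) of them by 2-fold or more. The rule divided these classes, so these values too are a description, and 8 HFD and 4 CD barcodes of the comparison class carried a Cd4 UMI. Ctsw, a protease of cytotoxic lymphocytes, was at 307 CPM in members and 61.0 CPM in those barcodes of HFD, and at 276 and 21.6 CPM in CD. Cst7, an inhibitor of granule proteases, was at 141 and 30.5 CPM in HFD, and at 159 CPM against 0 UMIs in CD. Anxa2, a membrane-binding protein of activated T cells, was at 204 and 40.6 CPM in HFD and at 200 and 43.2 CPM in CD. Retnla, a product of alternatively activated macrophages, was also higher in members, at 247 and 30.5 CPM in HFD and 366 and 64.8 CPM in CD. On the lower side Selenop, which encodes a secreted selenium-carrying protein, was the 1 gene past 2-fold in both libraries, at 51.5 and 152 CPM in HFD and 68.6 and 281 CPM in CD. Also on this side were Actn1, an actin crosslinker of naive T cells, at 132 and 234 CPM in HFD and 108 and 238 CPM in CD, and Cytip, a regulator of lymphocyte adhesion, at 187 and 345 CPM in HFD and 168 and 432 CPM in CD.

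Over the 1411 genes with 50 or more UMIs in each library's members, 99 genes (7.02%) were higher in Ccl5-high than in Ccl5-low members with the interval clear of 0 in both libraries, and 27 (1.91%) were lower. Of these, 24 (1.7%) were 2-fold or more higher and 5 (0.354%) 2-fold or more lower in both. Since Ccl5 made the division, genes that travel with it had to differ, and these counts are a description of the members. Ly6c2, the surface glycoprotein Ly6C of memory CD8 T cells, was at 1064 CPM in Ccl5-high and 142 CPM in Ccl5-low members of HFD, and at 626 and 203 CPM in CD. Its close copy Ly6c1 had 0 UMIs in every member of both libraries. Klrk1, the activating receptor NKG2D, was at 164 CPM in Ccl5-high and 13.1 CPM in Ccl5-low members of HFD, and at 226 and 15.9 CPM in CD. Ly6c2 thus kept a level of its own in Ccl5-low members, and Klrk1 was close to 0 there in both libraries.

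The same pattern held for Il2rb, the interleukin-15 receptor chain, with 433 CPM in Ccl5-high and 92.0 CPM in Ccl5-low members of HFD and 369 and 95.4 CPM in CD. Cxcr3, a receptor for interferon-induced chemokines, had 281 and 63.5 CPM in HFD and 238 and 59.6 CPM in CD. Ccr2, the receptor for monocyte-attracting chemokines, had 80.6 and 4.38 CPM in HFD and 151 and 47.7 CPM in CD. Further genes higher in Ccl5-high members of both libraries were Ctla2a, a cathepsin inhibitor (486 and 105 CPM in HFD, 780 and 67.6 CPM in CD), the integrin chain Itgal (133 and 52.6 CPM, 144 and 51.7 CPM) and the giant scaffold protein Ahnak (502 and 217 CPM, 490 and 187 CPM). Ifitm10, Myo1f, Efhd2, Cd69 and Dennd4a completed the 14 named by rule. Gzmk, which encodes granzyme K, had 59 UMIs in Ccl5-high and 0 in Ccl5-low members of HFD, where 0 allows up to 6.57 CPM, and 163 and 2 UMIs in CD.

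Genes lower in Ccl5-high members included several of resting naive T cells. Dapl1, which marks naive and early memory CD8 T cells, was at 171 CPM in Ccl5-high and 589 CPM in Ccl5-low members of HFD, and at 92.3 and 747 CPM in CD. Ccr7, the lymph-node homing receptor, was at 192 and 536 CPM in HFD and at 269 and 620 CPM in CD. Lef1, a Wnt-pathway factor of naive T cells, was at 229 and 385 CPM in HFD and at 213 and 445 CPM in CD. Dapl1 was lower in the CD8 barcodes without Ccl5 or Nkg7 than in the Ccl5-low members. Those barcodes, some of which carried a Cd4 UMI, had it at 81.3 CPM in HFD and 108 CPM in CD, from 8 and 5 UMIs. Igfbp4, another naive marker, had 3 UMIs in Ccl5-high and 30 in Ccl5-low members of HFD, and 0 and 21 in CD. Rgcc, Inpp4b, Sh3bp1, Actn1, Plac8, Npc2, Tspan13, Phb, Runx1, Igtp and Rexo2 were the other named genes on this side, of which Runx1 in both libraries and Tspan13 and Igtp in CD had intervals that included 0.

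Counts over the gene lists set this beside all genes, whose median log2 ratio of Ccl5-high over Ccl5-low was 0.08 in HFD and 0.14 in CD. NK-type receptors and adaptors, which tune killing, were above 0 for 11 of 11 measured in HFD (median 3.62) and 9 of 9 in CD (2.24). Cytotoxic effectors were above 0 for 8 of 9 in each library (1.89 and 1.24), and memory and effector transcription factors for 11 of 12 in HFD (0.81) and 10 of 10 in CD (0.98). Naive and quiescence genes were below 0 for 14 of 17 in HFD (-0.44) and 13 of 15 in CD (-0.84). Cell cycle genes were also below 0, for 12 of 13 in HFD (-0.75) and 6 of 7 in CD (-0.51), but 2 HFD barcodes held 287 and 145 of the 1570 UMIs of the 25 listed genes. Oxidative phosphorylation genes, for comparison, were split at 13 above and 20 below in HFD (-0.06) and 15 and 18 in CD (-0.07). The effector, receptor and memory factor lists were therefore on the Ccl5-high side and the naive list on the Ccl5-low side in both libraries.

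**Figure D2:**
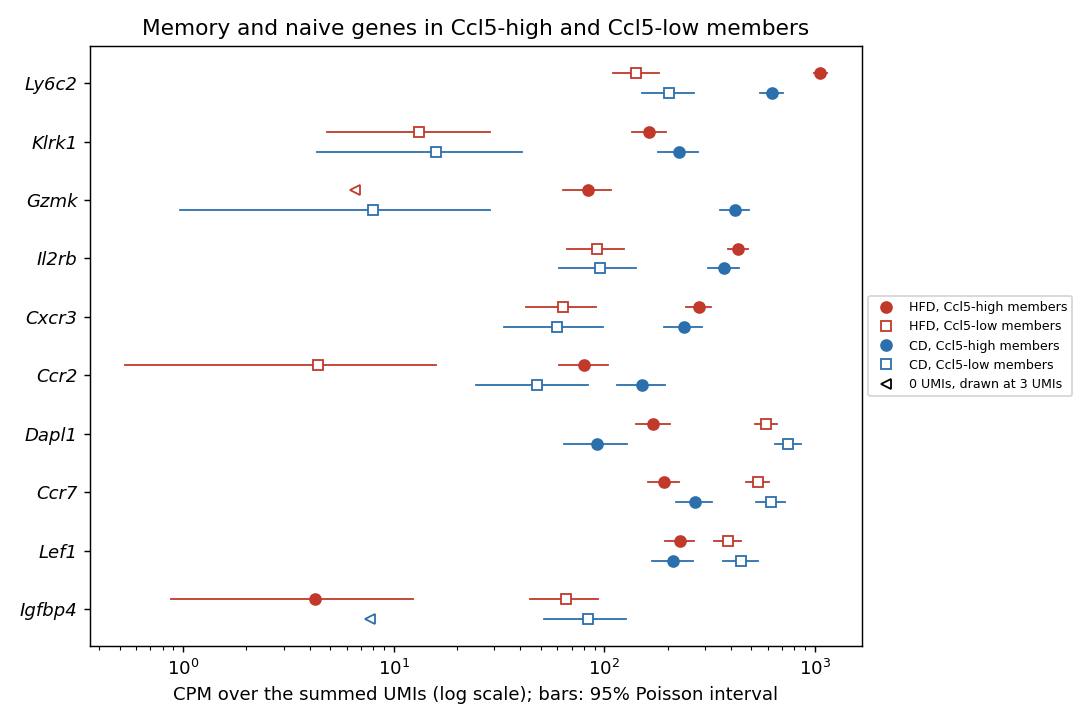
Levels in CPM over summed UMIs on a log axis, with 95% Poisson intervals, for 10 genes; red is HFD and blue CD, filled circles are Ccl5-high and open squares Ccl5-low members, and open triangles mark 0 UMIs drawn at 3 UMIs. Ly6c2, Klrk1, Gzmk, Il2rb, Cxcr3 and Ccr2 lie to the right in Ccl5-high members and Dapl1, Ccr7, Lef1 and Igfbp4 in Ccl5-low members.

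The promoters of 4 of these genes are shown because their transcripts follow the Ccl5-high or Ccl5-low side in both libraries. Nkg7 is part of the rule, Klrk1 and Gzmk were on the Ccl5-high side and Dapl1 on the Ccl5-low side. Of 14 genes looked up, 10 had an entry. Each run is 300 bases, 250 before the transcript start and 50 from it on, 5′ to 3′ on the gene's strand, from RefSeq on GRCm38.p6. The 4 windows are Nkg7 at chr7:43436888-43437187 (plus strand), Klrk1 at chr6:129623815-129624114 (minus strand), Gzmk at chr13:113180916-113181215 (minus strand) and Dapl1 at chr2:59484403-59484702 (plus strand). Both strands were searched for GGTGTGA, a core bound by T-box factors such as Eomes and Tbx21, for TGTGGTT, a core bound by RUNX factors, and for CTTTGAT, a core bound by TCF/LEF factors. Capitals mark a match.
Nkg7: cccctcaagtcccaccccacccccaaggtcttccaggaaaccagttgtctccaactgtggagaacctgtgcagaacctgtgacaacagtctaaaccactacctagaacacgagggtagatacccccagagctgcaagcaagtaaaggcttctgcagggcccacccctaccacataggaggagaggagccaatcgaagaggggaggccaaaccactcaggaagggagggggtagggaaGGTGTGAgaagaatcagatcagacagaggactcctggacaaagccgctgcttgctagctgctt
Klrk1: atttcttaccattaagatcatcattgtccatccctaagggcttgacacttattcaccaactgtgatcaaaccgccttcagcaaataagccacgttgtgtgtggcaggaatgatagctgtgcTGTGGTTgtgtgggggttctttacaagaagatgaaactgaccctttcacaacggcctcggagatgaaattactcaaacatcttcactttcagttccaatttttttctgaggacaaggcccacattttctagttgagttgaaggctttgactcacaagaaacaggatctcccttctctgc
Gzmk: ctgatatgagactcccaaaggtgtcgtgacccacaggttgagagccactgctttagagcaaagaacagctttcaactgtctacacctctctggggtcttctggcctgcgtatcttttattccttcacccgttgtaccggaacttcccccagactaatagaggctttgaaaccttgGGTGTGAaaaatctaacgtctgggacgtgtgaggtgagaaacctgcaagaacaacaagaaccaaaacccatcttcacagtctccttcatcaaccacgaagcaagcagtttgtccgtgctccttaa
Dapl1: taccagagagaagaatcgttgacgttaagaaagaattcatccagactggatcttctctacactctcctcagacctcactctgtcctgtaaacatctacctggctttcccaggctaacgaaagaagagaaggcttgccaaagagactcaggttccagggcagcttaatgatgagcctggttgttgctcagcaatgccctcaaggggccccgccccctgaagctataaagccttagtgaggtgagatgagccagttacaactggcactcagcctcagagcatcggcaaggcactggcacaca
The T-box letters began 13 bases before the Nkg7 start and 75 bases before the Gzmk start, and the RUNX letters began 129 bases before the Klrk1 start, each on the gene's own strand. Among all 32851 promoters of the same length, 3.98% held the T-box letters, 5.27% the RUNX letters and 3.73% the TCF/LEF letters. The RUNX letters were also found on the opposite strand in the windows of Ly6c2 and Cxcr3. None of the 3 motifs was in the Dapl1 window, which says only that these letters are not there. A match describes the sequence and is not evidence of binding.

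Across cell classes, the members shared the T-box factor Eomes with NK barcodes but not their granzyme A, and Gzmk was found in the members and CD4 T barcodes and not in NK barcodes. Eomes, a T-box factor of memory and NK cells, was at 77.7 CPM in the Ccl5-high members of HFD and 110 CPM in those of CD. It stood at 310 and 284 CPM in NK barcodes, and at 5.35 and 9.69 CPM in CD4 T barcodes. Gzma, granzyme A, was nearly absent from the members, with 3 UMIs in HFD and 7 in CD, against 4027 and 1297 CPM in NK barcodes. Gzmk had the opposite order, with 0 UMIs in NK barcodes of both libraries, 50.7 CPM in all members of HFD and 257 CPM in those of CD. In CD4 T barcodes Gzmk was at 77.6 CPM in HFD and 53.3 CPM in CD. Of the 11 genes of the NK list, 9 had UMIs in HFD members and 6 in CD members. The NK markers Klrb1b and Klra4 had 0 UMIs in all members. The list summed to 399 CPM in HFD members and 482 CPM in CD members, against 15594 and 11546 CPM in NK barcodes. A UMI of the list was seen in 118 HFD and 80 CD members. The highest single member stood at 6570 CPM in HFD and 6405 CPM in CD.

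Genes linked to tissue residency were at different levels. Cd69 was at 56.7 CPM in HFD and 162 CPM in CD members, and Xcl1 at 58.4 and 34.3 CPM. Itgae, the CD103 integrin chain that holds T cells in epithelia, had 5 UMIs in HFD and 1 in CD members, and Itga1, the collagen-binding CD49a chain, had 3 and 1. Cxcr6, a receptor of tissue T cells, was at 43.8 CPM in HFD and 48.3 CPM in CD members, far below its 765 and 1236 CPM in gamma-delta T barcodes. The exhaustion-associated receptor Pdcd1 had 19 UMIs in HFD and 9 in CD, all in Ccl5-high members. Transcripts of the CD103 and CD49a chains were thus few at this depth.

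The expression counts held receptor V segments, which allowed the members to be described by the pair of Trbv and Trav segments they carried. Both tables assigned more UMIs to the variable than to the constant segments. The members had 1514 Trbv and 412 Trav UMIs against 911 constant-segment UMIs in HFD, and 758 and 232 against 440 in CD, although the labels name a 3′ kit. A pair could be called in 102 HFD and 73 CD members, from 2 or more Trbv and 1 or more Trav UMIs with a single leading segment each. Pairs numbered 84 different ones in HFD and 50 in CD. Without the junction sequence a shared pair does not show a shared clone, and Trav segments with near-identical copies, such as those with n or d in their names, may be assigned to the wrong copy. In 23 HFD and 6 CD members 2 Trbv segments had 2 or more UMIs each.

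Pairs found on 3 or more members held 14 of 102 HFD members (13.7%, 7.71 to 22) and 22 of 73 CD members (30.1%, 19.9 to 42.0). With 3 or more Trbv and 2 or more Trav UMIs required, they held 3 of 59 in HFD (5.08%, 1.06 to 14.1) and 7 of 45 in CD (15.6%, 6.49 to 29.5). The HFD and CD intervals overlapped under both calls. With 1 Trav UMI sufficing, the largest HFD pair was Trbv16/Trav14-2 on 5 members and the CD pairs on 4 or more were Trbv4/Trav8n-2 on 7, Trbv17/Trav7d-3 on 6, Trbv31/Trav19 on 5 and Trbv16/Trav2 on 4 members. This order depended on that setting, since under the stricter call the largest were Trbv12-2/Trav16 on 3 HFD members and Trbv31/Trav19 on 4 CD members. In CD4 T barcodes the corresponding counts were 0 of 76 in HFD and 17 of 95 (17.9%) in CD, and under the stricter call 0 of 53 (0 to 6.72%) and 3 of 60 (5.0%, 1.04 to 13.9). The leading Trbv segment was Trbv19 in HFD, on 20 of 150 members with a call (13.3%), against 8 of 113 (7.08%) in CD. In CD it was Trbv16, on 20 of 113 (17.7%).

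The pairs were then described by a few transcripts, with no test between pairs. All 5 members with Trbv31/Trav19 in CD were Ccl5-low and carried Dapl1, 48 UMIs in all. The 7 members with Trbv4/Trav8n-2 were all Ccl5-high and carried 4, 4, 8, 9, 16, 17 and 32 Gzmk UMIs. Their 90 UMIs made up 54.5% of the 165 Gzmk UMIs of all CD members, a level of 2309 CPM against 208 CPM in the other 87 Ccl5-high members of CD. None of the 7 had a UMI of Klrk1, S100a4 or Dapl1, which 30, 35 and 10 of those other 87 members carried. The 6 members with Trbv17/Trav7d-3 all carried S100a4, a calcium-binding protein of memory T cells, with 22 UMIs (900 CPM), and had 8 Gzmk UMIs. S100a4 was on 29 of the other 88 Ccl5-high members of CD. The 4 members with Trbv16/Trav2 were all Ccl5-high and also all carried S100a4, with 9 UMIs (1072 CPM). They had 5 Gzmk UMIs. In HFD the 5 members with Trbv16/Trav14-2 were Ccl5-high, with 7 Gzmk UMIs over 4 of them and no UMI of Ccr7, Lef1 or Dapl1. Of the other 104 Ccl5-high members of HFD, 53 carried Ccr7, 70 Lef1 and 25 Dapl1. Among the 14 S100a4 UMIs of the members with Trbv16/Trav14-2, 11 lay in 1 member. The other HFD pairs among those on 3 or more members were on 3 each. Those with Trbv12-2/Trav16 were all Ccl5-high with 0 Gzmk and 0 Dapl1 UMIs. Gzmk was on 28 and Dapl1 on 25 of the other 106 Ccl5-high members of HFD. The members with Trbv12-1/Trav19 held 0, 0 and 30 Ccl5 UMIs. Those with Trbv12-1/Trav12-1 had 0, 8 and 9 Ccl5 UMIs and 0, 5 and 6 Dapl1 UMIs. They were all Ccl5-low by the division at 10, but the members at 8 and 9 lay just below it. These had 10 and 12 memory-marker UMIs against 9 and 10 naive-marker UMIs. A shared pair thus went with 1 kind of member for some pairs and with both kinds for Trbv12-1/Trav19, while Trbv12-1/Trav12-1 lay too near the division to tell.

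**Figure D3:**
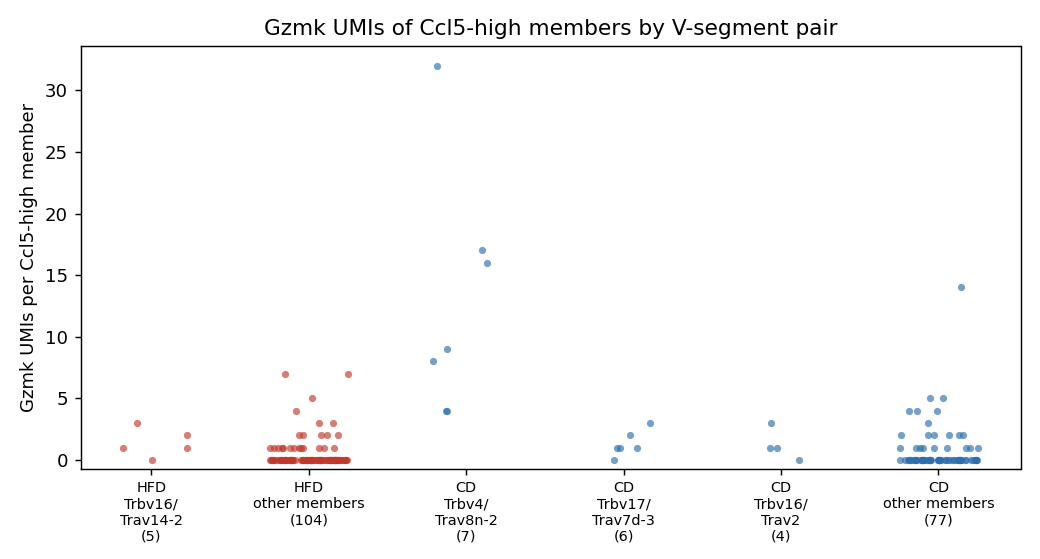
Gzmk UMIs of single Ccl5-high members, grouped by library and V-segment pair, with the number of members in parentheses; HFD is red and CD blue, and horizontal scatter is random. The 7 members with Trbv4/Trav8n-2 all have 4 or more Gzmk UMIs, up to 32.

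The members made up a larger share of the HFD library. They were 2.60% of kept barcodes in HFD (2.23 to 3.01) and 1.09% in CD (0.916 to 1.28), a difference of 1.52 percentage points (1.11 to 1.96). All T barcodes were likewise 9.23% in HFD and 5.64% in CD, and CD4 T barcodes 2.03% in HFD and 1.30% in CD, so other T barcodes also had the larger share in HFD. As a share of T barcodes the members were 28.2% in HFD and 19.3% in CD, a difference of 8.93 points (4.39 to 13.5). Within CD8 T barcodes, their share was 81.3% in HFD (75.4 to 86.3) and 86.1% in CD (79.8 to 91.0), and the interval of the difference, -12.0 to 2.93 points, included 0. Ccl5-high members were 62.6% of members in HFD and 66.2% in CD, with an interval of the difference from -13.9 to 7.06 points. That division was not scaled to depth, which differed between the libraries.

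The size of that difference in kept barcodes, though not its direction, changed with thinning and with a count of single-lineage members alone. With each kept barcode thinned to 2000 UMIs, the members were 2.02% in HFD and 0.857% in CD. Single-lineage members alone were 0.898% of kept barcodes in HFD and 0.467% in CD, a difference of 0.43 points (0.19 to 0.71). Barcodes with fewer UMIs meet the single-lineage condition more easily, and HFD was the deeper library. What part of the change came from depth or from mixed barcodes was not tested. Ccl5-high members were 1.63% in HFD and 0.719% in CD, and Ccl5-low members 0.972% in HFD and 0.367% in CD. Cells were sorted for CD45, so these shares are relative to the other leukocytes of a library and do not give cell numbers in the cavity.

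**Figure D4:**
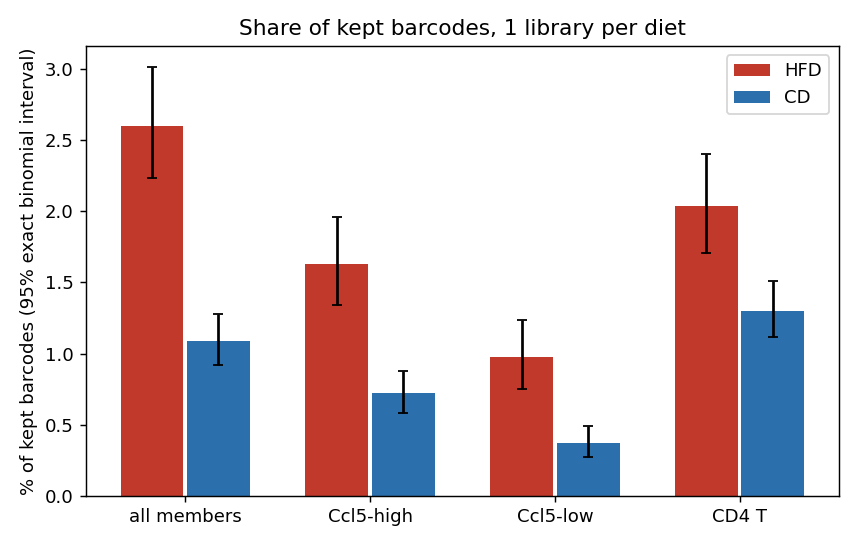
Share of kept barcodes in percent, with 95% exact binomial intervals, for all members, Ccl5-high members, Ccl5-low members and CD4 T barcodes; HFD is red (left bar) and CD blue, with 1 library each. All members were 2.60% in HFD and 1.09% in CD.

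Between the diets, 3937 genes had 50 or more UMIs over the members' sums and met the level and detection limits given below for named genes. The genes left out there were left out here too. Of the 3937 genes, 36 (0.914%) were 2-fold or more higher in HFD with the interval clear of 0, and 30 (0.762%) were 2-fold or more lower. The corresponding shares in CD4 T barcodes were 0.619% higher and 0.876% lower of 3880 genes. The lead was taken by Jaml on the higher side and by Gzmk on the lower side. Log2 ratios below are HFD over CD.

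Jaml encodes a junctional adhesion molecule-like receptor that gives a costimulatory signal to gamma-delta and CD8 T cells. It had 85 UMIs (73.0 CPM) in HFD and 9 UMIs (14 CPM) in CD, a log2 ratio of 2.38 (1.39 to 3.56). It was found in 32.8% of HFD and 4.93% of CD members, and after thinning to 2000 UMIs in 13.2% and 2.32%. B barcodes, whose median depth was 5895 UMIs in HFD and 4619.5 in CD, carried it in 2.0% and 1.03%, and after thinning in 0.704% and 0.394%. The ratio was 2.17 in Ccl5-high and 2.72 in Ccl5-low members, so both kinds of member shared it, and 2.66 (0.95 to 5.02) in single-lineage members. CD4 T barcodes had a smaller ratio of 1.19 (0.29 to 2.15). Gamma-delta T barcodes, at 163 CPM in HFD and 256 CPM in CD, had a ratio of -0.66 (-1.21 to -0.12), on the other side of 0. The difference between classes was not tested.

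The other genes named on the higher side were mostly of low level and of unrelated functions. Mfsd10, a membrane transporter, was at 54.1 CPM in HFD and 15.6 CPM in CD (1.80, 0.82 to 2.92). Mov10, an RNA helicase, was at 42.1 and 12.5 CPM (1.75, 0.66 to 3.04), and Mdn1, an ATPase of ribosome assembly, at 60.1 and 18.7 CPM (1.68, 0.79 to 2.70). Dusp5, a phosphatase that inactivates ERK in the nucleus, was at 36.1 and 12.5 CPM (1.53, 0.42 to 2.83). Baz2b (1.61), Alyref (1.48), Nrm (1.40), Slc28a2b (1.38) and Sp3os (1.46) followed, the last 2 of which are uncertain because Slc28a2b has a near-identical neighbour and Sp3os is antisense to Sp3. Whether counting used strand is not given in the sources used here. A gene with no symbol in the files stood at 1.66.

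For 3 of the higher genes, 1 barcode or another class bears on the value. Tppp3, a tubulin-binding protein, was at 40.4 CPM in HFD and 9.35 CPM in CD (2.11, 0.88 to 3.63), with 10 of its 47 HFD UMIs in 1 barcode. B barcodes had it at 288 CPM in HFD and 66.3 CPM in CD, with the same ratio of 2.12, and whether B-cell RNA contributed to the members' value was not tested. Tbc1d22b (1.55) had 17 of 53 HFD UMIs in 1 barcode. Cdk8, a kinase of the Mediator complex, was at 5144 CPM in HFD and 2161 CPM in CD (1.25, 1.17 to 1.34), and 1 HFD barcode held 1383 of its 5989 UMIs. Cdk8 was also higher in HFD in CD4 T (0.74) and B barcodes (0.53), and stood at -0.03 in gamma-delta T barcodes.

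Gzmk had 59 UMIs (50.7 CPM) in HFD and 165 UMIs (257 CPM) in CD, a log2 ratio of -2.34 (-2.80 to -1.91). It was found in 16.1% of HFD and 27.5% of CD members, and after thinning in 9.0% and 19.0%. In B barcodes the shares were 0.0617% and 0.111%. Without the 7 CD members that carried Trbv4 and Trav8n-2 the ratio was -1.30 (-1.81 to -0.79), and with thinned counts -1.21 (-1.94 to -0.51). The members with that 1 pair thus carried more than 1 log2 unit of the difference, and Gzmk was lower in HFD in both recounts. Klrg1, an inhibitory receptor of effector cells, had 6 UMIs in HFD and 26 in CD. Without those 7 members it had 6 and 5, with a ratio of -0.69 (-2.66 to 1.36).

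Cd69 and Tagap were lower in HFD in the members as in the other lymphocytes. Cd69, an early activation receptor that also retains T cells in tissue, was at 56.7 CPM in HFD and 162 CPM in CD (-1.52, -1.98 to -1.06). Tagap, a GTPase-activating protein induced on T-cell activation, was at 38.7 CPM in HFD and 136 CPM in CD (-1.81, -2.36 to -1.28). In CD4 T barcodes the ratios were -1.28 for Cd69 and -1.39 for Tagap, and in B barcodes -1.46 and -1.54. These differences were thus shared between T and B barcodes.

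The MHC class II genes Cd74, the invariant chain, and H2-Aa, an alpha chain of the class II molecule, were at 1312 and 324 CPM in HFD and at 3157 and 739 CPM in CD (-1.27 and -1.19). These are genes of antigen-presenting cells, and a few members held most of their UMIs. Members with 20 or more UMIs of 4 class II genes together numbered 2 in HFD, with 1597 of 2421 UMIs, and 8 in CD, with 2257 of 3066. Without them the ratios were -0.90 for Cd74 and -0.91 for H2-Aa, and in single-lineage members -0.68 and -0.53. Pltp, a phospholipid transfer protein made by macrophages, was at 79.0 CPM in HFD and 193 CPM in CD (-1.29). It had 75 of its 92 HFD UMIs in 2 barcodes, and in single-lineage members its ratio was 0.48 (-0.28 to 1.27). Ly86, a partner of a B-cell surface receptor, was at -1.52, and the summed B markers given above were lower in HFD too. The part of B-cell and macrophage RNA in these values was not tested.

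Of the remaining genes named on the lower side, Sgms1, a sphingomyelin synthase, was at 19.8 CPM in HFD and 56.1 CPM in CD (-1.51, -2.33 to -0.71). Map3k11 (-1.40), Bcl2a1b (-1.34), Phc3 (-1.24), Irf9 (-1.19) and Pus3 (-1.16) had between 22 and 40 UMIs in HFD and between 32 and 52 in CD. Bcl2a1b belongs to a family of near-identical copies, and its counts may be split among them. Zeb2, a factor of terminal effector cells, was at 30.9 CPM in HFD and 71.7 CPM in CD (-1.21), with 18 of its 36 HFD UMIs in 1 barcode.

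**Figure D5:**
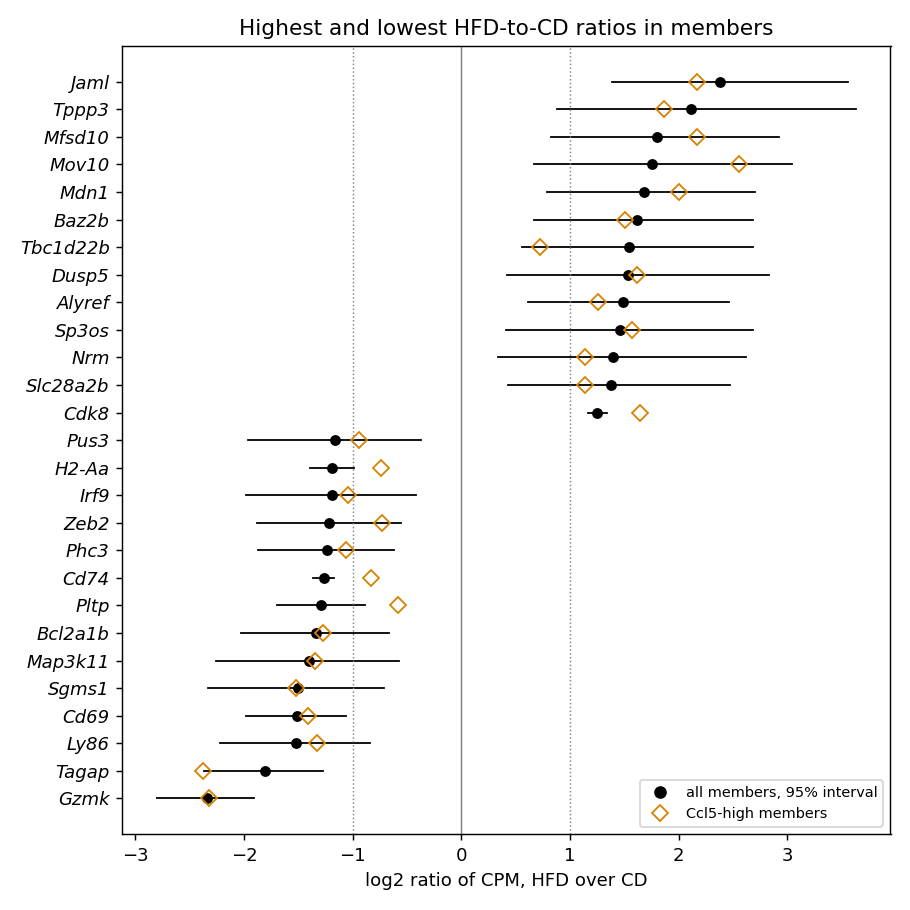
Log2 ratio of CPM, HFD over CD, of the named genes with a symbol, with black points and 95% intervals for all members and open diamonds for Ccl5-high members; dotted lines mark a 2-fold difference. Jaml is highest at 2.38 and Gzmk lowest at -2.34.

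By role, the effector genes had more ratios below 0 than above. The 14 measured cytotoxic effectors had 5 ratios above 0 and 9 below, with 1 and 5 intervals clear of 0 and a median of -0.23, beside -0.03 over all 7159 genes with 20 or more UMIs. Of all those genes, 3369 were above 0 and 3790 below, with 288 intervals clear above and 395 below, and the list counts that follow are to be read beside these. Gzmb, granzyme B, was on the other side, at 30 UMIs (25.8 CPM) in HFD and 7 UMIs (10.9 CPM) in CD (1.24, 0.02 to 2.67). All 7 CD UMIs lay in members with Trbv4/Trav8n-2, and the other 87 Ccl5-high members of CD had 0. In HFD, 6 of the 30 UMIs lay in 1 member with Trbv12-2/Trav16. Prf1, perforin, was at 46.4 CPM in HFD and 43.7 CPM in CD (0.09, -0.60 to 0.80). Rab27a, which docks lytic granules, was at 16.3 CPM in HFD and 43.7 CPM in CD (-1.42, -2.34 to -0.53). Ifng had 10 UMIs in HFD and 12 in CD. The granule genes thus lay on both sides of 0.

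Among chemokines and cytokines, 5 of 9 ratios were above 0, with 3 intervals clear above and 1 below (median 0.01). Xcl1, which attracts cross-presenting dendritic cells, was at 58.4 CPM in HFD and 34.3 CPM in CD (0.77, 0.06 to 1.53), all of it in Ccl5-high members. Lta, lymphotoxin alpha, had 41 UMIs in HFD and 8 in CD (1.5, 0.39 to 2.80). The rule's own gene Ccl5 was at 6232 CPM in HFD and 8815 CPM in CD.

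Homing genes had 5 of 17 ratios above 0 and 12 below, with 1 interval clear above and 4 below (median -0.21). In Ccl5-low members 8 were above and 6 below (median 0.01). Itga4, the alpha-4 integrin chain used for entry into inflamed tissue, was at 151 CPM in HFD and 284 CPM in CD (-0.91, -1.22 to -0.60), and its partner Itgb1 was at -0.61 (-0.91 to -0.30). Ccr2 was at 50.7 CPM in HFD and 111 CPM in CD (-1.13, -1.65 to -0.61), but its ratio was -0.03 (-0.91 to 0.88) in single-lineage members. Cxcr3 was at 196 CPM in HFD and 168 CPM in CD, with an interval that included 0. Ccr7 was at 327 CPM in HFD and 407 CPM in CD (-0.31, -0.55 to -0.08). Over all members these genes except Cxcr3 thus had intervals below 0.

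Memory surface genes had 13 ratios above 0 and 14 below among 27 (median -0.03). Ly6c2, one of the given markers, was at 703 CPM in HFD and 460 CPM in CD (0.61, 0.42 to 0.81). The ratio was 0.77 in Ccl5-high and -0.51 (-1.06 to 0.05) in Ccl5-low members, and 0.35 (-0.01 to 0.71) with thinned counts. Vim, the intermediate filament vimentin, was at 1242 CPM in HFD and 859 CPM in CD (0.53, 0.39 to 0.68). Cd44 was at 66.1 CPM in HFD and 76.4 CPM in CD, with an interval that included 0. Memory and effector transcription factors had 5 of 14 above 0 (median -0.09). Tbx21, which encodes T-bet, was at 59.3 CPM in HFD and 29.6 CPM in CD (1.0, 0.25 to 1.82), while Eomes was at 55.0 and 70.1 CPM (-0.35, -0.92 to 0.23). Naive genes had 9 of 19 above 0 (median -0.06), with Satb1 at 186 CPM in HFD and 115 CPM in CD (0.69), but at -0.07 in single-lineage members.

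Receptors for cytokines had 8 of 14 ratios above 0 (median 0.11). Il7r, the receptor for the survival cytokine interleukin-7, was at 370 CPM in HFD and 535 CPM in CD (-0.53, -0.74 to -0.32). Il18r1, which senses interleukin-18, was at 121 CPM in HFD and 74.8 CPM in CD (0.69, 0.21 to 1.20). Il2rb was at 299 CPM in HFD and 262 CPM in CD, with an interval that included 0. T-cell receptor signalling genes were split at 12 above and 14 below (median -0.03). In that pathway Zap70, the proximal kinase, was at 0.59 (0.15 to 1.06) and Cd28, the costimulatory receptor, at -0.91 (-1.34 to -0.48). Among the 7 inhibitory receptors 4 were below 0 (median -0.42), with Tigit at 11 UMIs in HFD and 29 in CD (-2.26, -3.41 to -1.21). NK-type receptors were split at 8 above and 7 below (median 0.01), and Klrd1, which pairs with NKG2 chains, was at 255 CPM in HFD and 265 CPM in CD.

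Interferon response genes were below 0 for 19 of 27, with 0 intervals clear above and 7 clear below (median -0.23). Examples were Ifi47, an interferon-induced GTPase, at 197 CPM in HFD and 348 CPM in CD (-0.82, -1.09 to -0.55), and Ifi27l2a at 260 and 440 CPM (-0.76, -0.99 to -0.52). Heat shock genes were below 0 for 11 of 13, with 4 intervals clear below (median -0.29), and the co-chaperone Dnajb1 was at 46.4 CPM in HFD and 96.7 CPM in CD (-1.06). MHC class I presentation genes were below 0 for 11 of 16, with 5 intervals clear below and 1 above (median -0.14). In Ccl5-high members these 3 lists had medians of -0.26, -0.16 and -0.20, and in Ccl5-low members of -0.27, -0.39 and -0.04. In Ccl5-low members the class I list was split at 8 above and 8 below, with 1 interval clear above and 0 below.

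Activation and immediate early genes were split at 9 above and 13 below (median -0.08), with Fos, a growth-factor induced transcription factor, at 108 CPM in HFD and 54.6 CPM in CD (0.99, 0.44 to 1.57). Glucocorticoid targets were below 0 for 8 of 11 (median -0.53), with Tsc22d3, the glucocorticoid-induced leucine zipper, at 144 CPM in HFD and 301 CPM in CD (-1.06, -1.37 to -0.75). With thinned counts, where 6 of them could be measured, that median was 0.42. Cell cycle genes were above 0 for 12 of 15 (median 0.65), and the 2 HFD barcodes with the most UMIs of these genes, given above, stood beside 28 UMIs in the next. Without the 5% of members with the most UMIs the median was -0.08. Members with 10 or more UMIs of the listed cell cycle genes, not scaled to depth, numbered 44 in HFD and 17 in CD. In CD4 T barcodes 17 of 20 cell cycle genes were above 0 (median 1.75). What part of the members' value came from a few deep barcodes was not tested.

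Metabolic lists were close to the median of all genes. Glycolysis genes were split at 8 above and 7 below (median 0.02), and Gapdh was at 0.34 (0.20 to 0.47). Fatty acid uptake and oxidation genes were split at 13 and 13 (median -0.01), and sterol synthesis genes at 8 and 3 (median 0.14). Oxidative phosphorylation genes were above 0 for 20 of 33, with 6 intervals clear above and 1 below (median 0.06), and Atp5k, a subunit of ATP synthase, was at 156 CPM in HFD and 90.4 CPM in CD (0.79, 0.36 to 1.24). Residency genes had 1 of 6 above 0 (median -0.19).

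Within Ccl5-high members, 28 of 2606 genes (1.07%) were 2-fold or more higher in HFD and 27 (1.04%) lower, and within Ccl5-low members 14 of 1509 (0.928%) higher and 17 (1.13%) lower. Jaml was higher in HFD, and Cd69, Tagap and Itga4 lower, in both kinds of member, with every interval clear of 0. Gzmk, Klrg1 and Xcl1 had 0 to 2 UMIs in Ccl5-low members of either library, so their values describe Ccl5-high members. Dapl1 was at 171 CPM in HFD and 92.3 CPM in CD in Ccl5-high members, and at 589 and 747 CPM in Ccl5-low members. Its level over all members, 335 CPM in HFD and 349 CPM in CD, combined these opposite differences.

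Single-lineage members, 60 in HFD and 61 in CD, gave other sizes for several genes described above. The log2 ratio of Zeb2 was -0.46 in them, of Slc28a2b 0.24 and of Ifi27l2a -0.48, each closer to 0 than in all members. It was -1.69 for Gzmk, also closer to 0. It was -2.46 for Tagap, -1.30 for Ifi47, 0.96 for Ly6c2 and 1.51 for Cdk8, each farther from 0. The part of mixed barcodes in the values of all members was not tested.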

How the data were processed

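The authors deposited UMI counts per gene and barcode for 1 expression library per diet and a contig table for 1 B-cell receptor library per diet. Per the file headers the matrices came from Cell Ranger 8.0.1, while version 6.0.1 of that tool, Seurat 4.3.0 and the build mm39 are listed per the submitters' processing notes. Cell-free RNA and doublets were not removed here and no doublet caller was run, but the rule drops contig carriers and barcodes with B-cell or macrophage genes.

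Counts were summed over members and scaled to CPM. Ratios have exact conditional Poisson intervals, shares Clopper-Pearson and differences of shares Newcombe intervals, all at 95% and for counting error only. With 1 library per diet no test was made. Other classes were B (3 or more UMIs of Cd79a and Ms4a1), macrophage (5 or more of the 3 macrophage genes), NK, gamma-delta T, CD4 T (1 or more Cd4 UMIs) and CD8 T barcodes without Ccl5 or Nkg7.

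Named genes had 30 CPM or more in the higher library, 50 UMIs over both sums, detection in 10% of members of 1 library, at least 10% of their highest level over the classes, and an interval clear of 0. The 14 highest and 14 lowest were named, plus up to 5 per list with 20 UMIs. Receptor segment, immunoglobulin, mitochondrial, ribosomal, sex-linked and rule genes were left out. Genes printed beyond these come from the lists, or were chosen after their values were seen. One gene of the naive list is not reported here by itself. Members and lists were chosen with earlier results of these data known. Values were recomputed under 13 other settings and under 3 chosen after seeing the data.

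The code was tested on simulated data. Python 3.11.15, numpy 2.4.6, scipy 1.17.1, pandas 2.3.3, statsmodels 0.14.6 and matplotlib 3.10.9 were used.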

Additional observations from a re-analysis of the deposited data

Results flagged for a closer look

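For 2 of the named genes the members and CD4 T barcodes differed in opposite directions between the diets, with both intervals clear of 0. The difference between the classes was not tested. Mdn1, an ATPase of ribosome assembly, had a log2 ratio of HFD over CD of 1.68 (0.79 to 2.70) in the members and -1.13 (-2.04 to -0.28) in CD4 T barcodes. Pltp, a phospholipid transfer protein, had -1.29 (-1.70 to -0.89) in the members and 0.79 (0.37 to 1.22) in CD4 T barcodes. In the members, 75 of the 92 HFD UMIs of Pltp lay in 2 barcodes.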

How the results depend on the processing

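No paired analysis was possible because each diet had 1 library. Of 2260 values of 143 results recomputed under the alternatives, 2151 stayed within the limits set for an unchanged value, 102 moved and 7 turned in sign. Without barcodes that held a B-cell or macrophage UMI, the difference in share was 0.43 points, 13 genes were 2-fold higher and 18 lower, and the log2 ratios of Pltp and Satb1 were 0.48 and -0.070. With Ccl5-high members alone, chosen after seeing the data, the difference in share was 0.91 points. Thinning to 2000 UMIs gave 10 higher and 16 lower genes, and ratios of 0.22 for Gadd45b, -0.0075 for Mif, 0.057 for Nr3c1 and -0.30 for Pclaf. Equal weight per barcode gave 68 and 75 genes, and 73 genes were lower when 20 UMIs sufficed. Without the 5% deepest members Pclaf was at -0.84. Thinning leaves fewer UMIs and fewer genes to count; otherwise the cause was not tested. The difference in share ranged from 0.43 to 1.76 points and that within CD8 T from -6.04 to -2.26. The ratio of Jaml ranged from 1.95 to 3.70, of Gzmk from -2.43 to -1.21 and of Cd69 from -1.83 to -1.28.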
